A study of Homo sapiens with 5 samples.

Results

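The HIST1 cluster on the short arm of chromosome 6 is the largest group of histone genes in the human genome, and its binding sites for JMJD3 and p53 were examined in BJ cells, a telomerase-immortalized human fibroblast line from foreskin, by ChIP-seq. In this method the DNA fragments that an antibody pulls down are sequenced, and stretches with many fragments are listed as binding sites. The members are the listed sites whose centre lies in either of 2 windows of chromosome 6 in the hg18 assembly. The first window runs from 26120000 to 26400000 (280 kb) and the second from 27870000 to 27980000 (110 kb), and membership is by position alone. Together they held 76 of the 43443 sites of the series. There were 4 lists of sites, from untreated cells and from cells given ionizing radiation (IR) at 10 Gy, each with an antibody against p53 (DO-1) or a rabbit antibody against JMJD3, with 1 library for each combination. All cells carried the same telomerase transgene, and the authors called the sites against reads from a rabbit IgG control of untreated cells. The labels give 6 h between IR and harvest, while the study's text gives a slightly shorter time. Without replicates no test between untreated and irradiated cells was possible, and the intervals given are exact (Clopper-Pearson) 95% binomial intervals that cover counting error only.

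The replication-dependent histone genes of this cluster are short, mostly lack introns, and are transcribed mainly in S phase to supply the proteins that package new DNA. HIST1H3E encodes a core histone H3, the protein whose lysine 27 carries the methyl groups that JMJD3, also named KDM6B, removes. HIST1H2BD encodes a core histone H2B, and HIST1H1C and HIST1H1E encode linker histones of the H1 family, which bind the DNA between nucleosomes. p53 is the transcription factor that is stabilised after DNA damage.

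In RefSeq (GRCh38.p14), 66 genes of chromosome 6 carry a HIST1 name, of which 55 are protein coding and 11 are pseudogenes. The coding genes are 6 of H1, 12 of H2A, 15 of H2B, 10 of H3 and 12 of H4. HIST1H1E and HIST1H2BD are direct neighbours, HIST1H3E lies between HIST1H2AE and HIST1H1D, and HIST1H1C lies between HIST1H3C and HFE, a gene of iron uptake. A position in hg18 was used here only for HIST1H3E, at about 26333360, so the other 3 genes were not joined to single sites. The 250 bases before each start site are shown from RefSeq, because HIST1H3E is the gene at which a site could be placed and the others are the remaining named members. Capitals mark the letters of the CCAAT box (CCAAT) and the TATA box (TATAAA), as exact matches on either strand at any place in the 250 bases. RefSeq gives 2 start sites for HIST1H3E. All sequences are printed 5′ to 3′ on the strand of the gene, and their GRCh38.p14 positions cannot be compared with the hg18 positions of the sites.
HIST1H3E, first start site, chr6:26223928-26224177, plus strand: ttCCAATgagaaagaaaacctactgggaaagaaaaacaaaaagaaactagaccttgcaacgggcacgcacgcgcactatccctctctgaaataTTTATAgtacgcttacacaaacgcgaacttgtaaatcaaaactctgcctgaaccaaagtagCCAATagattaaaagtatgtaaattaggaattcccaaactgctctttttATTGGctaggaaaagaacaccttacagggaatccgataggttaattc
HIST1H3E, second start site, chr6:26224885-26225134, plus strand: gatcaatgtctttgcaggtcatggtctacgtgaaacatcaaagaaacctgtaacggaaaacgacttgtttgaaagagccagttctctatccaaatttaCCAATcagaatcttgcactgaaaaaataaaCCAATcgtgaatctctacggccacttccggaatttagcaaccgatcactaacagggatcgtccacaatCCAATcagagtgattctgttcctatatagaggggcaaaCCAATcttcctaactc
HIST1H2BD, chr6:26157871-26158120, plus strand: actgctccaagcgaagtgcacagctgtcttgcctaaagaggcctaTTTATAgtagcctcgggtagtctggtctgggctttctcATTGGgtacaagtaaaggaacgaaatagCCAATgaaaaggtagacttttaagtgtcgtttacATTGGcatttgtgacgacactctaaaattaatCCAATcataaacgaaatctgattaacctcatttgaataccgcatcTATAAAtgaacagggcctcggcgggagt
HIST1H1C, chr6:26056471-26056720, minus strand: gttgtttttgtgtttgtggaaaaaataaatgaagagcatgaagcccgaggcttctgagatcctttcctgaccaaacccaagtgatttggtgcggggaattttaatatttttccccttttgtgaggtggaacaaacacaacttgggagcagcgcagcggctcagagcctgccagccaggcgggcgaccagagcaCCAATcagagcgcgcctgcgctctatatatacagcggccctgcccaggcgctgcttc
HIST1H1E, chr6:26156079-26156328, plus strand: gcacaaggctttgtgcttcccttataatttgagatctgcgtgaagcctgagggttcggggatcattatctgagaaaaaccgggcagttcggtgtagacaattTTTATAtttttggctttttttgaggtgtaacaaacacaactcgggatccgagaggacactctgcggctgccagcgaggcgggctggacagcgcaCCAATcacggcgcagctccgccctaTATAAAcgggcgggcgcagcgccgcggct

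Of the 55 coding genes, 50 had a promoter sequence in the table. A CCAAT box was found before the start site of 43 of these 50 genes (86%), against 37.0% of all 27305 genes in the table. The families differed, as all 6 H1, 11 H2A, 15 H2B and 8 H3 genes held the box but only 3 of 10 H4 genes (30%) did. The promoters of HIST1H3E held 3 and 4 such boxes, that of HIST1H2BD 4, and those of HIST1H1C and HIST1H1E 1 each. The letters TATAAA of the TATA box were found in 34 of the 50 genes (68%) and in 13% of all genes. Of the 6 H1 genes 3 held these exact letters, and HIST1H1C did not. Other forms of the box and its distance from the start site were not examined. The octamer ATTTGCAT, an element known from H2B promoters, was found in 22 of the 50 genes (44%), 12 of them H2B and 9 of them H2A genes, and in 2.03% of all genes. It was not in the windows of the 4 genes printed above, HIST1H2BD included. None of the 50 genes held an exact match to the consensus p53 response element, which 9 of all 27305 genes (0.033%) did. No mismatch was allowed, so such matches were rare in any promoter and their absence from 50 genes says little. These matches describe letters in these windows and not binding. The median share of the letters G and C in these windows was 41.4% for the HIST1 genes, against 58% for all genes. The shares of genes with a match were not adjusted for this difference, and its effect on them was not tested.

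JMJD3 sites were packed in the HIST1 windows before IR. In untreated cells 37 JMJD3 sites were listed there, which is 14% (10.1 to 18.8%) of the 264 sites of chromosome 6 in 0.229% of the length that its sites span. This equals 94.9 sites per Mb, against 1.34 per Mb in the rest of chromosome 6, a density 71.0 times as high (48.8 to 101). Both windows shared in this, with 26 sites in the first and 11 in the second. After IR 39 JMJD3 sites were listed in the windows, or 100 sites per Mb against 10.9 per Mb in the rest of the chromosome, so that the ratio of densities was 9.19 (6.51 to 12.6). Against the chromosome within 5 Mb of the windows alone the ratios were lower, at 24.2 in untreated cells and 5.68 after IR. The lists differ in their smallest site, which is 125 bp wide after IR and 200 bp in untreated cells. With sites of at least 200 bp alone, the windows held 24 sites after IR against 37, and the ratio of densities after IR was 13.2. The plot of site density shows all listed sites, with similar densities in the windows in both JMJD3 lists and a higher density after IR in the rest of chromosome 6.

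**Figure D1:**
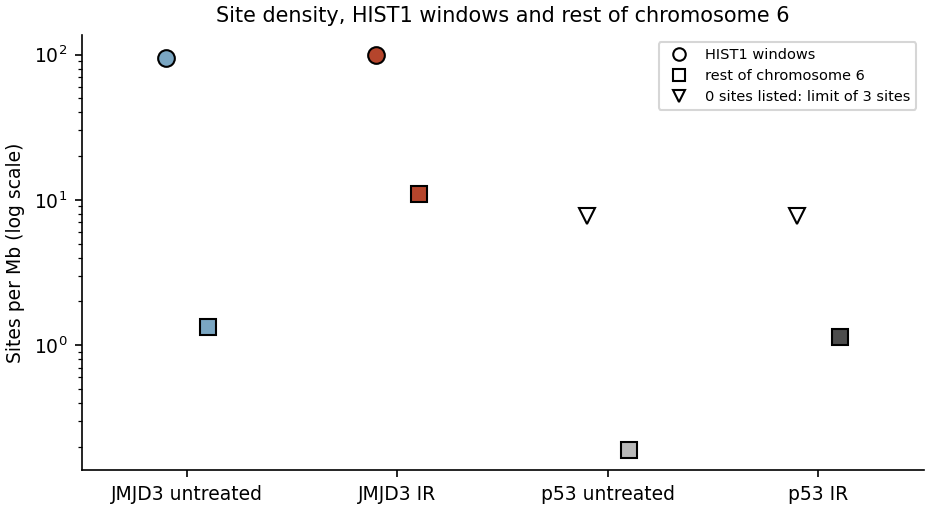
Sites per Mb (log scale) in the HIST1 windows (circles) and the rest of chromosome 6 (squares) for each of the 4 lists, 1 library each; open triangles mark lists with 0 sites in the windows and stand at the density that 3 sites would give, 7.69 per Mb. The circles of both JMJD3 lists lie at 94.9 and 100 sites per Mb, while the squares lie at 1.34 and 10.9.

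The number of JMJD3 sites in the windows was close in both lists, with 39 after IR against 37 in untreated cells, a ratio of 1.05 (0.655 to 1.70). In the rest of chromosome 6 it was 1849 against 227, a ratio of 8.15 (7.09 to 9.39), and over all sites outside the windows 7.50 (7.27 to 7.73). With sites of at least 200 bp the ratio was 0.649 in the windows (0.371 to 1.11) and 3.49 in the rest of chromosome 6, so that both were lower and the windows held fewer sites after IR than before it. Over all listed sites, the ratio in the windows was 0.130 times that in the rest of chromosome 6 (exact conditional interval 0.0787 to 0.214). In the first window there were 30 sites after IR against 26 (ratio 1.15, 0.660 to 2.03), and in the second 9 against 11 (0.818, 0.300 to 2.17). Within 5 Mb of the windows the ratio was 4.49 (3.24 to 6.35), above the interval of the windows and below that of the whole chromosome. The length covered by JMJD3 sites in the windows was 21.2 kb in untreated cells and 12.0 kb after IR, which is 0.564 times as much, whereas in the rest of chromosome 6 it was 5.28 times as high after IR. The windows were covered to 5.44% before IR and to 3.07% after it.

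**Figure D2:**
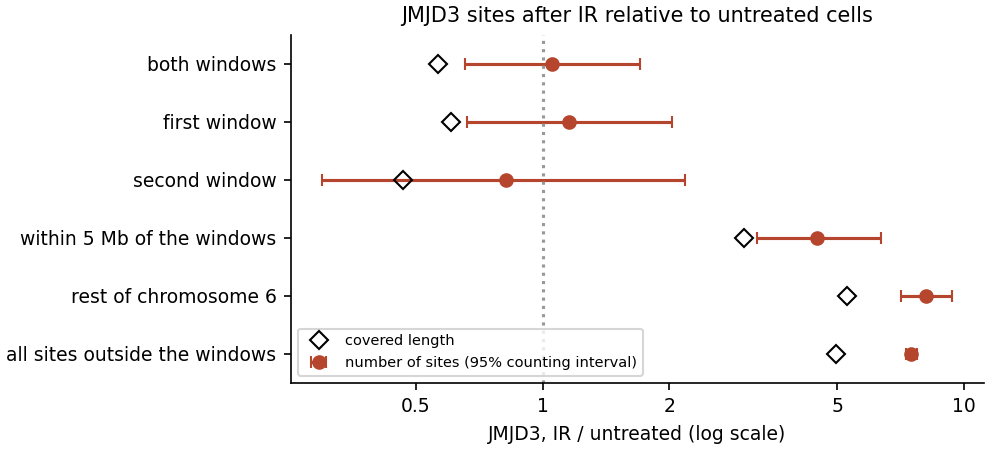
JMJD3 after IR relative to untreated cells (log scale), as the ratio of site numbers (filled circles, with exact 95% counting intervals) and of covered length (open diamonds), for the HIST1 windows and for the areas around them. The intervals of both windows include 1 (dotted line) and lie below those of the other areas, and only in the windows was the covered length smaller after IR.

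When the span of chromosome 6 was divided into 609 stretches of 280 kb, the first window held the most JMJD3 sites in untreated cells, 26, and had rank 4 after IR, with 30 sites. The median stretch held 0 sites before IR and 2 after it, and the highest number after IR was 44. Over all chromosomes, with 10511 stretches, the first window held the second highest number in untreated cells, behind a stretch with 28, and had rank 86 after IR. The lists differ in length (4717 and 35133 sites) and in smallest width, so the ranks describe each list and their difference is not a change at the windows. Among the 88 stretches with 8 or more untreated sites the median ratio of IR to untreated was 2.75, and the ratio of the first window, 1.15, was number 5 from the lowest. These stretches were picked by the untreated number, which enters the ratio, so their ratios are a description.

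**Figure D3:**
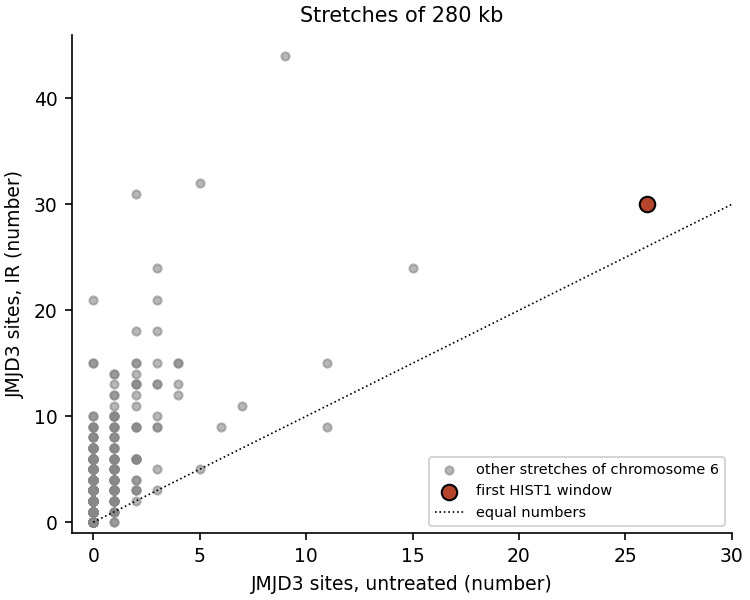
Number of JMJD3 sites in untreated cells (horizontal) and after IR (vertical) in each of the 609 stretches of 280 kb along chromosome 6, with the first HIST1 window in red and the dotted line at equal numbers. The first window, at 26 and 30 sites, lies farthest to the right and close to the line of equal numbers, while most other stretches lie above it with few untreated sites.

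A smaller share of the untreated sites in the windows than of those elsewhere was listed again after IR. Of the 37 sites, 22 shared at least 1 bp with a JMJD3 site listed after IR (59.5%, 42.1 to 75.2%), against 83.3% of the sites in the rest of chromosome 6 (77.8 to 87.9%) and 86.8% of all sites. When 50% of the site had to be covered the share was 29.7% in the windows and 74.9% in the rest of chromosome 6, and when its centre had to lie in the other site 35.1% and 73.6%. By the rule of 1 bp the share was 17 of 26 in the first window and 5 of 11 in the second. In the other direction, 29 of the 39 sites after IR overlapped a site of untreated cells (74.4%, 57.9 to 87.0%), against 10.7% in the rest of chromosome 6 (9.28 to 12.2%) and 11.9% of all sites. This share is limited by the lengths of the lists, since 227 untreated sites stand against 1849 after IR in the rest of chromosome 6 and 37 against 39 in the windows, so it adds little to the ratios of site numbers above. The 10 sites listed only after IR were 125 to 238 bp wide (median 152 bp), and 5 of them lay within 1 kb of a site of untreated cells. In the rest of chromosome 6 the 1652 such sites had a median width of 177 bp, and 104 of them (6.30%) lay within 1 kb of one of the far fewer untreated sites there.

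JMJD3 sites in the windows were wide before IR and narrower after it. In untreated cells their median width was 467 bp (200 to 1793 bp), against 260 bp in the rest of chromosome 6. After IR it was 253 bp (125 to 1022 bp), against 184 bp in the rest. Fewer of the windows' sites after IR were under 200 bp wide, 15 of 39 (38.5%) against 57.2% in the rest of the chromosome, a width that no site of the other 3 lists falls under. Of the 22 untreated sites listed again, 18 were narrower after IR, with a median ratio of summed width of 0.728, and 7 were split into 2 or more sites. In the rest of chromosome 6 the median ratio was 1.19, with 60 of 189 sites narrower and 13 split. Sites listed again were wider than the others in both areas, with medians of 503.5 and 284 bp in the windows and 278 and 229 bp in the rest of chromosome 6. The JMJD3 sites after IR covered 40.3% of the length that the untreated sites took up in the windows, and 76.2% in the rest of the chromosome.

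The share listed again was also lower for wide sites. Among untreated sites at least as wide as the windows' median of 467 bp, 15 of 19 in the windows were listed again (78.9%, 54.4 to 93.9%), against 679 of 685 outside them (99.1%, 98.1 to 99.7%). Thus, of the 10 sites of this width that were not listed after IR in the whole series, 4 lay in the windows. These 4 sites, named after their values were seen, ran from 26212228 to 26212816, from 27886089 to 27886929, from 27889495 to 27890049 and from 27948474 to 27948952. The one from 27886089, 841 bp wide, was the widest of the 15 that were not listed again. The 15 sites had a median width of 284 bp, and for 9 of them the nearest JMJD3 site of irradiated cells was over 1 kb away (60%). The share was similar in the rest of chromosome 6, at 22 of 38 sites (57.9%).

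**Figure D4:**
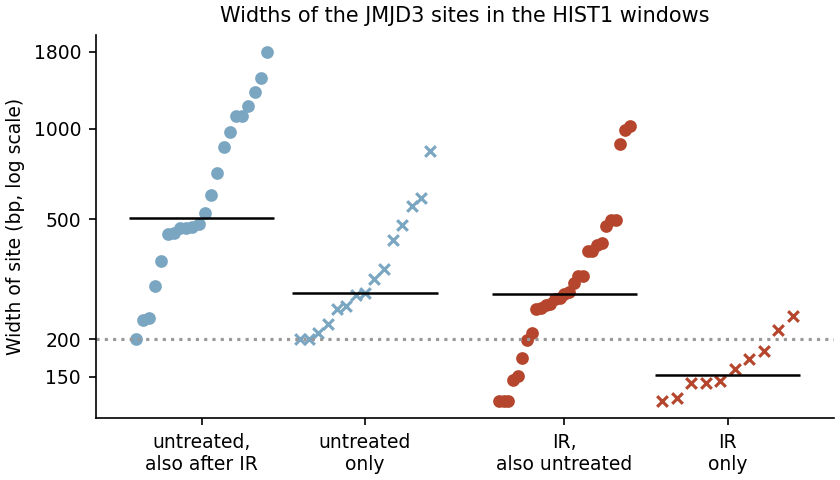
Width in bp (log scale) of each JMJD3 site in the HIST1 windows, for untreated cells (blue) and after IR (red), with sites that overlap a site of the other list as circles and those that do not as crosses; horizontal lines are medians and the dotted line is at 200 bp. Untreated sites that were listed again had a median width of 503.5 bp against 284 bp for the others (278 and 229 bp in the rest of chromosome 6), and all sites listed only after IR were 238 bp wide or less.

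At HIST1H3E, JMJD3 sites were listed both before and after IR and no p53 site in either condition. The study had selected HIST1H3E as a gene outside the p53 targets to measure binding of both proteins, so this is a description of a chosen gene. It did so by ChIP-qPCR in irradiated control and p53 knockdown cells. There it reported that JMJD3 enrichment at such genes did not change with the loss of p53. The approximate position of the gene in hg18, 26333360, lay inside a JMJD3 site of irradiated cells from 26333151 to 26334172, which was 1022 bp wide and the widest in the windows after IR. In untreated cells the site began 72 bp past this position and ran from 26333432 to 26334529, with a width of 1098 bp, number 6 by width. Both sites overlap, and since the position is approximate and RefSeq gives 2 start sites, the 72 bp do not separate them with respect to the gene. Another 2 JMJD3 sites were listed after IR within 5 kb on the lower side, from 26331930 to 26332167 and from 26332524 to 26332666, with widths of 238 and 143 bp. Neither overlapped a site of untreated cells. The stretch around HIST1H3E was therefore among the few in which the covered length was larger after IR, with 1403 bp against 1098 bp.

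The widest JMJD3 site of the windows in untreated cells lay in the second window from 27941486 to 27943278 and was 1793 bp wide. After IR 2 separate sites were listed within its bounds or across its edge, from 27942284 to 27942780 and from 27943078 to 27943329, of 497 and 252 bp. The next widest, from 26163173 to 26164644 (1472 bp), overlapped sites after IR from 26163165 to 26164154 (990 bp) and from 26164367 to 26164674 (308 bp). In both places the list after IR held a pair of sites with a gap between them. The lists give bounds without heights, so they do not show whether binding in the gap had changed. A site of 1326 bp from 26377745 to 26379070 overlapped sites of 253 and 259 bp after IR. Another of 1187 bp from 26341847 to 26343033 overlapped sites of 173 and 275 bp. The site from 26323713 to 26324817 (1105 bp) overlapped sites of 325 bp and 416 bp (from 26324512 to 26324927) after IR, and the site from 26139446 to 26140315 (870 bp) overlapped 2 sites of 282 and 146 bp. A different course was seen from 26265123 to 26266097, where a site of 975 bp was met after IR by a site of 891 bp from 26265285 to 26266175. All 8 of the widest untreated sites, that at HIST1H3E included, overlapped a site after IR, and each of them was wider than the summed width of the sites that overlapped it. They were picked for their untreated width, which enters this comparison. Of the 175 untreated sites outside the windows that were at least as wide (870 bp), all were listed again as well, and 43 (24.6%) had a smaller summed width after IR. The median ratio of summed width was 0.581 for the 8 sites and 1.13 for the 175.

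Of the widest JMJD3 sites after IR, the 3 not yet described were from 27906486 to 27906984 (499 bp), from 27947239 to 27947713 (475 bp) and from 26313379 to 26313788 (410 bp). Each of them overlapped a site of untreated cells.

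When the sites of both JMJD3 lists were joined within 1 kb, 32 stretches of binding resulted in the windows. Of these, 20 held sites of both lists, 8 sites of untreated cells only and 4 sites after IR only. Thus 71.4% of the stretches with untreated sites also held a site after IR, against 87.9% in the rest of chromosome 6. There 153 stretches held sites of both lists, 21 of untreated cells only and 1336 of irradiated cells only. Of the stretches with sites after IR, 83.3% in the windows also held an untreated site, against 10.3% in the rest of the chromosome. This share, too, is limited by the lengths of the lists. In 16 of the 20 shared stretches (80%) the covered length was smaller after IR and in 4 it was larger, against 38 of 153 smaller (24.8%) in the rest of the chromosome. The sites were spaced closely in both conditions, as 34 of 37 untreated sites (91.9%) and 35 of 39 sites after IR (89.7%) had another site of the same list within 10 kb, against 41.0% and 58.6% in the rest of chromosome 6.

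**Figure D5:**
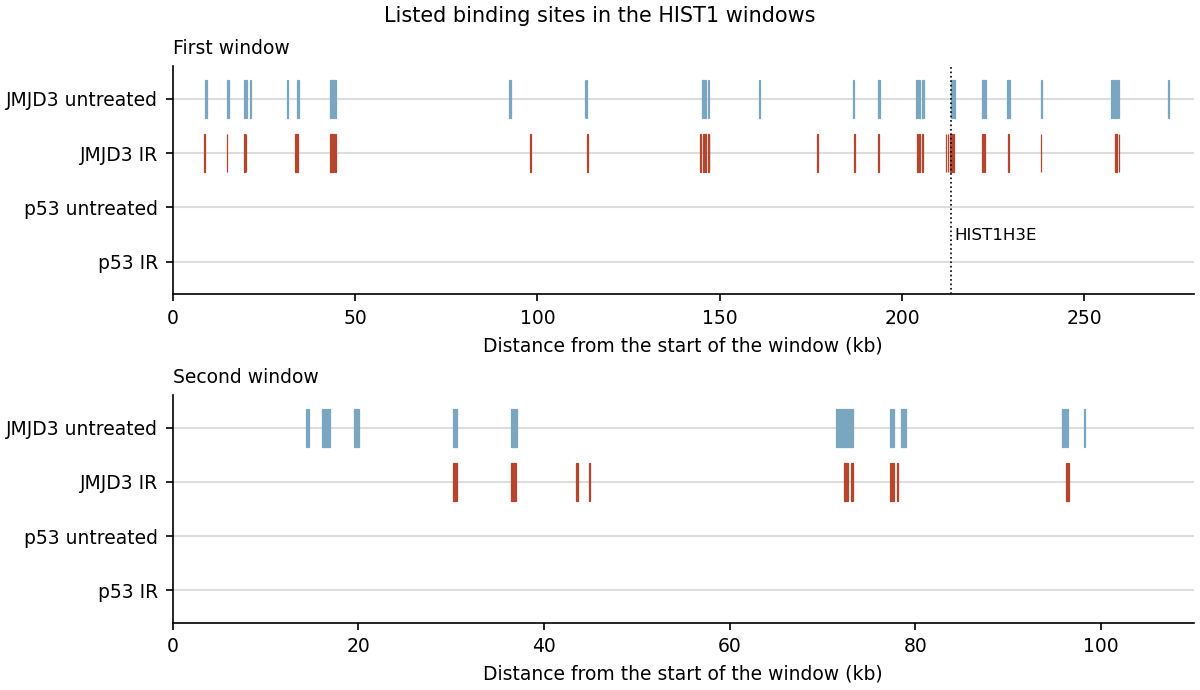
Position of every listed site in the HIST1 windows, in kb from the start of each window, with 1 row for each of the 4 lists and a dotted line at the position of HIST1H3E; bars are drawn to scale with a thin outline that widens the narrowest. JMJD3 sites of untreated cells (37) and irradiated cells (39) lie close together along both windows, and both p53 rows are empty.

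No p53 site was listed in the windows in either condition. In untreated cells 0 of the 32 p53 sites of chromosome 6 lay there, and after IR 0 of 192. Taking 3 sites as what a count of 0 allows, the shares could be up to 9.38% and 1.56%, and the upper ends of the exact intervals were 10.9% and 1.90%. At the p53 density of the rest of chromosome 6 after IR, 1.13 sites per Mb, 0.441 sites would fall in windows of this length, so a lower density of p53 sites was not detectable here. The nearest p53 site after IR lay below the first window from 25093612 to 25093941 (330 bp wide), 1.03 Mb away, and no p53 site lay within 1 Mb of either window. In untreated cells the nearest p53 sites were 3.57 Mb from the first window and 3.43 Mb from the second. As a consequence none of the 76 JMJD3 sites of the windows overlapped a p53 site.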

How the data were processed

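ChIP-seq sites of p53 and JMJD3 were taken as deposited, in 4 lists from 1 library each. The authors aligned tags to hg18 with Bowtie 0.12.7, keeping unique alignments, and called peaks with MACS version 2, library by library, using the IgG reads as control. Near-identical histone gene copies lose shared tags under this rule, and its effect was not tested. The threshold of the peak calling is not given in the sources used here, and the lists hold no heights. The deposited values used here are start and end positions, which give no depth. The IgG library was not analysed here.

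A site belongs to a window if its centre lies in it. The rest of chromosome 6 is the remainder of the length spanned by all lists (170 Mb). Counts, overlaps (at least 1 bp) and exact intervals were computed with numpy 2.4.6 and scipy 1.17.1 in Python 3.11.15, checked on simulated sites, and drawn with matplotlib 3.10.9. The intervals treat neighbouring sites as independent and are therefore too narrow. The windows, members and comparisons were chosen with earlier results of these data known. Named sites are the 8 widest of each JMJD3 list and those within 5 kb of HIST1H3E, besides the sites after IR that overlap a named untreated site and 4 wide untreated sites, all of these chosen after their values were seen. Alternatives were other overlap rules, minimum widths, merging and backgrounds.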

Additional observations from a re-analysis of the deposited data

How the results depend on the processing

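Of 34 alternatives, 21 kept the main value or stayed within its counting interval, and 13 moved beyond it. Some of the 21 could not move, as no untreated site was under 200 bp wide. The p53 count of 0 had no interval and stayed at 0. No alternative put a density ratio below 1. With sites of at least 200 bp, which removes sites from the list after IR alone, the ratio of densities after IR was 13.2, the ratio of JMJD3 site numbers in the windows 0.649 (rest of chromosome 6, 3.49), the share of sites after IR with an untreated site 91.7% (rest of chromosome 6, 20.1%) and the median width 315.5 bp. Measured by covered length, the ratio of IR to untreated was 0.564. Against chromosome 6 within 5 Mb of the windows alone, the ratios of densities were 5.68 after IR and 24.2 in untreated cells, since JMJD3 sites are denser there. The share of untreated sites listed again was 29.7% when 50% of the site had to be covered, 35.1% by the centre rule and 75.7% when a gap of up to 1 kb was allowed, against 74.9%, 73.6% and 90.3% in the rest of chromosome 6. The share of sites after IR with an untreated site was 53.8%, 53.8% and 87.2% under these rules, against 9.36%, 9.63% and 16.3% in the rest of chromosome 6. Each window alone, chosen for the ratio of site numbers after the data were seen, gave 1.15 and 0.818. No paired analysis was possible because there was a single library per antibody and treatment. Unknown depth limits every comparison of site numbers.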

Other observations

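The 1.47 Mb between the windows held far fewer JMJD3 sites per Mb than the windows in both conditions. There were 7 JMJD3 sites in untreated cells, or 4.76 per Mb, which was 3.13 times the density of the remainder of chromosome 6, the windows included (1.25 to 6.54). After IR there were 16 sites, or 10.9 per Mb, and the ratio was 0.982 (0.560 to 1.60). No p53 site was listed there in either condition.

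Apart from the first window and the stretch that holds the second, 3 stretches of 280 kb on chromosome 6 held 8 or more JMJD3 sites in untreated cells. From 30320000 to 30599999 there were 15 sites before IR and 24 after it, and from 35360000 to 35639999 there were 11 and 15. From 30600000 to 30879999 there were 9 and 44, the highest number after IR on the chromosome.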
